A study of Danio rerio with 18 samples.

Results

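Keratinocytes that carried oncogenic HRasG12V were compared with keratinocytes that carried HRas control in zebrafish larvae at 3 days post-fertilization (dpf). The comparison used 6 of the 18 libraries of the series, chosen by their labels: 3 HRasG12V and 3 HRas control libraries, 1 of each from batches 1, 2 and 3, which were collected on separate days. Each library was made by translating ribosome affinity purification (TRAP) from about 50 pooled larvae. In TRAP an EGFP-tagged ribosomal protein, L10a, is expressed in a chosen cell type, and the RNA that is pulled down with the tagged ribosomes is sequenced. Wild-type embryos received the krt4-driven L10a plasmid together with RFP-HRasG12V or RFP-HRas, both under the same krt4 promoter. Every group therefore carried an HRas transgene, and the arms differed in the form of HRas. The plasmids were injected and not inherited, so the transgenes were mosaic, and whether each tagged cell carried both plasmids was not measured here. Larval survival with the oncogenic construct was described as poor. In the other 12 libraries, 3 per group, neutrophils or macrophages were tagged by stable lines (LyzC or mpeg1 promoter). The larvae were injected with the same HRasG12V or HRas plasmids. They show whether a change was also present in pull-downs from cell types in which the krt4 promoter is not known to be active. Keratinocyte transcripts were also found in these pull-downs, as described below.

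HRas is a small GTPase that relays growth factor signals to the RAF-MEK-ERK cascade. The G12V form is locked in its active state, and active ERK switches on immediate early transcription factors together with inhibitors that feed back on the pathway, such as Sprouty proteins. Keratinocytes of the larval skin form a surface sheet held together by keratins, junction proteins and a collagen-anchored basement membrane, and they are a common model for the first steps of Ras-driven transformation.

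Keratinocyte libraries held between 7083906 and 10088450 counts, of which 83.8% to 94.7% lay in the 10 most abundant features. Outside these, HRasG12V libraries held 385201 to 1637759 counts and HRas control libraries 408202 to 792454, so genes at a few CPM (counts scaled to a common library size) rested on few reads. One macrophage HRas control library (batch 3) held only 16990 counts, and some macrophage values are also given without this shallow library. The keratinocyte list summed higher in each keratinocyte library than in any neutrophil or macrophage library. In HRasG12V keratinocytes the skeletal muscle list summed to 6666 to 8353 CPM, above the keratinocyte list. In HRas control keratinocytes the skeletal muscle list summed to 3558 to 4629 CPM. The keratinocyte list summed to 5459 to 5702 CPM in HRasG12V keratinocytes and 4711 to 8250 CPM in HRas control keratinocytes, and krt4, the keratin whose promoter drove the transgenes, averaged 2755 CPM in HRasG12V and 3035 CPM in HRas control keratinocytes. Its mean was 1020 CPM in HRasG12V and 685 CPM in HRas control neutrophils, and 1957 CPM in HRasG12V and 746 CPM in HRas control macrophages. The last mean includes the shallow library. Keratinocyte transcripts were thus also found in neutrophil and macrophage libraries. In macrophages the keratinocyte list summed to 2652 to 3321 CPM in HRasG12V and 625 to 1886 CPM in HRas control, with the shallow library included. In neutrophils it summed to 1284 to 2423 CPM in HRasG12V and 1321 to 2144 CPM in HRas control. The part of these transcripts in the neutrophil and macrophage values below was not tested. The neutrophil marker lyz averaged 1.13 CPM in HRasG12V and 0.259 CPM in HRas control keratinocytes. The injected HRas could not be checked by level, because both arms received one: of the 2 genes named HRAS, ENSDARG00000005651 had 9.82, 2.06 and 5.37 CPM in HRasG12V, against 4.42, 1.92 and 4.37 CPM in HRas control (log2 fold change 0.70 ± 0.47 SE, adjusted p = 0.824), and ENSDARG00000098497 differed by -0.30 ± 0.56 SE on the log2 scale (adjusted p = 0.964).

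Few genes passed the test in keratinocytes, and nearly all of those were higher with the oncogene. Of 14685 genes tested, 47 (0.32%) rose in HRasG12V keratinocytes and 1 (0.00681%) fell at an adjusted p of at most 0.05 in edgeR's quasi-likelihood test. Among the 47, 31 stood on the list of skeletal muscle genes and 16 did not. Here and below, non-muscle means only that a gene is on neither the skeletal nor the cardiac muscle list. The 16 included thioredoxin, the interleukin il1b, a pair of endothelial genes and a group of genes for actin- and membrane-associated proteins. In 45 of the 47, each HRasG12V library lay above each HRas control library, an order seen in 6.75% of all genes tested. The 47 were chosen by p, which favours this order, so it is a description. The same holds for each remark below that the groups of a called gene did not overlap. Fold changes are given on the log2 scale, HRasG12V over HRas control, with their standard error (SE), and levels as CPM normalised by edgeR's trimmed mean of M-values (TMM). An exact permutation test of 3 libraries against 3 cannot go below p = 0.1 for a single gene, so the calls rest on the spread estimated over all genes. Without HRas control 2, the library of the controls with the fewest counts outside the most abundant features, 24 genes were called higher and 4 of these were non-muscle genes. Without HRas control 1, 31 were called higher.

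Thioredoxin stood first among the non-muscle genes. The gene txnb encodes a small protein that reduces disulphides in other proteins and helps clear peroxides. It had 36.8, 21.7 and 16.2 CPM in the HRasG12V libraries of batches 1, 2 and 3, against 3.72, 6.73 and 3.12 CPM in the HRas control libraries (log2 fold change 2.45 ± 0.42 SE, adjusted p = 0.000288). The HRasG12V library of batch 1 was highest, and even the lowest HRasG12V library lay above every control library. Its paralog TXN had 18.5, 9.98 and 10.05 CPM in HRasG12V, against 5.81, 7.69 and 4.83 CPM in HRas control, also without overlap, and did not pass the test (log2 fold change 1.12 ± 0.43 SE, adjusted p = 0.467). In neutrophil libraries txnb rose too (1.92 ± 0.43 SE, adjusted p = 0.0199), whereas the macrophage difference was 0.83 ± 0.47 SE. The part of keratinocyte transcripts in these values was not tested. The call in keratinocytes was lost without batch 1 (adjusted p = 0.175) and in no other alternative that was run.

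The antioxidant list holds 79 genes that remove oxidants or rebuild glutathione and thioredoxin, of which 55 were tested. Of these, 5 were higher and 0 lower at an unadjusted p under 0.05 (9.09% higher, against 4.53% of all genes higher and 2.83% lower), and txnb was the only one called. The list's median log2 fold change was 0.46 for keratinocytes, 0.44 for neutrophils and 0.56 for macrophages, where all genes had medians of 0.01, 0.02 and 0.09. Besides the thioredoxins, the members at this p were gsto2, a glutathione transferase (1.78), fthl27, a ferritin heavy chain that stores iron (0.88), and prdx1, a peroxiredoxin (1.54). The count was 1 without HRasG12V 1, 2 without HRas control 2 and 8 without HRasG12V 2. Over all genes, 665 were higher at this p in the main fit, and 503 to 912 with 1 keratinocyte library left out. Counts of higher list members in such fits, here and below, are to be read beside that range.

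Endothelial genes formed the second set of non-muscle changes. The rasip1 gene encodes a Ras-interacting protein that blood vessels need to open a lumen in mice and zebrafish. It had 12.8, 9.29 and 7.17 CPM in HRasG12V, against 0, 0.962 and 0.936 CPM in HRas control (log2 fold change 3.84 ± 0.69 SE, adjusted p = 0.00075). Counts in the control libraries were 0, 3 and 6, so the gene was close to undetected there and present in each HRasG12V library. BCL6B, a transcriptional repressor enriched in endothelium, had 3.64, 10.7 and 5.69 CPM in HRasG12V, against 0.465, 0.321 and 1.56 CPM in HRas control (log2 fold change 2.92 ± 0.69 SE, adjusted p = 0.0318), with batch 2 highest and no overlap between the groups. The effect on rasip1 was larger in keratinocytes than in macrophages by 5.54 ± 1.00 SE on the log2 scale (adjusted p = 0.00634), while the macrophage difference itself was -1.70 ± 0.70 SE and the neutrophil difference 0.54 ± 0.62 SE. Without HRas control 1 (adjusted p = 0.0703), without batch 1 (adjusted p = 0.304) and with library size as the only scaling, this difference was no longer called.

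Of 31 endothelial genes tested, 13 were higher and 0 lower at an unadjusted p under 0.05 (41.9% higher, against 4.53% of all genes), and 2 were called. The 2 are rasip1 and BCL6B, and the list was written with earlier results of these data known. Its counts are therefore a description. The median was 1.02 in keratinocytes, 0.30 in neutrophils and -0.07 in macrophages (-0.10 without the shallow library). Other members at this p included the vascular endothelial growth factor receptors kdrl (2.31 ± 0.93 SE), KDR (2.62 ± 1.03 SE) and FLT4 (2.65 ± 0.95 SE), the transcription factors ERG (1.55 ± 0.55 SE) and FLI1 (1.22 ± 0.57 SE), and the junction protein CLDN5 (3.05 ± 1.22 SE). None of these 6 passed the adjusted test. ERG had 8.08, 8.95 and 5.76 CPM in HRasG12V, against 3.72, 1.28 and 2.18 CPM in HRas control, and kdrl had 1.58, 4.13 and 2.49 CPM in HRasG12V, against 0.930, 0.962 and 0 CPM in HRas control. Neither gene overlapped between the groups, and kdrl was absent from HRas control 3. Summed over the list, the level was 121, 163 and 127 CPM in HRasG12V, against 79.0, 85.9 and 93.1 CPM in HRas control, again without overlap. The count of 13 was 8 without HRasG12V 2, 7 without HRas control 1, 6 without HRas control 2 and 4 in a fit of the 6 keratinocyte libraries alone. That fit tested 9703 genes in all, against 14685 in the main fit. In a pull-down from whole larvae, more cells of a type and more RNA per cell cannot be told apart, and neither can be told apart from expression in the tagged cells.

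Other called non-muscle genes encode proteins of the cytoskeleton and of the membrane it is anchored to, and they are described together here only after their calls were seen. The alpha-tubulin tuba8l3 had 18.9, 37.5 and 19.3 CPM in HRasG12V, against 2.32, 7.05 and 5.46 CPM in HRas control (log2 fold change 2.32 ± 0.42 SE, adjusted p = 0.00075), with batch 2 highest in both groups. CAVIN1 (ENSDARG00000076411), which coats caveolae, the small pits of the plasma membrane, had 16.6, 18.9 and 10.4 CPM in HRasG12V, against 2.56, 0 and 2.34 CPM in HRas control (log2 fold change 3.00 ± 0.57 SE, adjusted p = 0.00159). The tropomyosin tpm4a, whose protein lies along actin filaments, had 32.8, 30.6 and 22.4 CPM in HRasG12V, against 9.30, 3.21 and 6.39 CPM in HRas control (log2 fold change 2.098 ± 0.42 SE, adjusted p = 0.00427). In all of these the lowest HRasG12V library exceeded the highest control library. MSN, or moesin, which ties actin to the plasma membrane, had 44.0, 45.8 and 27.9 CPM in HRasG12V, against 9.76, 12.8 and 13.6 CPM in HRas control (log2 fold change 1.64 ± 0.35 SE, adjusted p = 0.00979). The actin crosslinker palladin, PALLD, had 18.9, 22.4 and 14.1 CPM in HRasG12V, against 5.11, 3.53 and 7.33 CPM in HRas control (log2 fold change 1.74 ± 0.38 SE, adjusted p = 0.0109). HRasG12V 3 was the lowest of its group for both, and still lay above the controls.

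ANXA2, a calcium-dependent annexin that binds membranes and actin, had 60.04, 33.7 and 25.9 CPM in HRasG12V, against 10.23, 23.08 and 9.98 CPM in HRas control (log2 fold change 1.49 ± 0.37 SE, adjusted p = 0.0444). HRas control 2 came close to HRasG12V 3, and the groups did not overlap. The gene wipf1b, of the family that binds and steers the actin-nucleating WASP proteins, had 8, 4 and 22 counts in HRasG12V, against 0, 0 and 1 counts in HRas control, a ratio of normalised counts of 21.3 with a 95% interval of 3.58 to 867 for counting error alone (adjusted p = 0.0258). Genes with related roles that were near the threshold were AFAP1L2 (2.05 ± 0.57 SE, adjusted p = 0.136) and afap1l1b (2.61 ± 0.73 SE, adjusted p = 0.136), both actin-filament-associated proteins, and the cell adhesion molecule MCAM (4.03 ± 1.11 SE, adjusted p = 0.126). In which cells of the larva these genes were expressed was not measured here, and CAVIN1 and PALLD are also known from muscle. The summed muscle list moved with the groups (7035, 8353 and 6666 CPM in HRasG12V, against 4629, 4013 and 3558 CPM in HRas control), and its part in these results was not tested.

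Of the enzymes and carriers, AK1 and fabp4a were called. AK1, an adenylate kinase that balances ATP, ADP and AMP and is abundant in muscle, had 56.1, 69.9 and 40.8 CPM in HRasG12V, against 23.5, 16.7 and 11.5 CPM in HRas control (log2 fold change 1.70 ± 0.33 SE, adjusted p = 0.00197). The fatty-acid-binding protein fabp4a had 14.1, 11.01 and 13.6 CPM in HRasG12V, against 4.88, 3.53 and 4.05 CPM in HRas control (log2 fold change 1.65 ± 0.39 SE, adjusted p = 0.0325). Neither gene overlapped between the groups, and fabp4a varied little within each. A gene without a symbol, ENSDARG00000101809, had 16.95, 12.4 and 9.89 CPM in HRasG12V, against 3.02, 2.56 and 3.43 CPM in HRas control (log2 fold change 2.00 ± 0.42 SE, adjusted p = 0.00786).

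The interleukin il1b, the main secreted signal of early inflammation, was detected in all HRasG12V keratinocyte libraries and in none of the HRas control ones. It had 17, 20 and 4 counts in HRasG12V, against 0, 0 and 0 counts in HRas control. With every control at 0, and with 3 counts over the group as the floor, the level was at least 8.57-fold higher (adjusted p = 0.0258). The counts were low, and HRasG12V 3, the deepest library, had the fewest of its group. The call was lost without HRasG12V 1 or 2 (adjusted p = 0.0682 and 0.153) and without each control in turn (adjusted p between 0.0792 and 0.194). In neutrophils the difference was 2.97 ± 1.08 SE and in macrophages 1.64 ± 1.00 SE. Of the other cytokines that the study followed by qPCR, tnfa had 0 counts in all 6 keratinocyte libraries, cxcl8a had 0, 0 and 4 counts in HRasG12V and 0, 2 and 0 in HRas control, and cxcl8b.1 had 0, 0 and 1 in HRasG12V and 0, 0 and 0 in HRas control. A count of 0 over a group allows up to 3 counts, and at this depth no difference was detectable for these cytokines. Leukocyte lists had higher sums beside il1b: the neutrophil list, with 3 of 20 genes higher and 1 lower at an unadjusted p under 0.05, summed to 24.7, 21.3 and 24.8 CPM in HRasG12V, against 19.5, 16.03 and 15.1 CPM in HRas control, the macrophage list, with 4 of 28 higher and 1 lower, to 56.9, 62.3 and 57.8 CPM in HRasG12V, against 35.6, 40.1 and 49.7 CPM in HRas control, and the pan-leukocyte list, with 3 of 29 higher, to 192, 178 and 116 CPM in HRasG12V, against 129, 169 and 113 CPM in HRas control. The shares higher were 15%, 14.3% and 10.3% for the neutrophil, macrophage and pan-leukocyte lists, against 4.53% of all genes. The pan-leukocyte sums overlapped, the neutrophil and macrophage sums did not, and their part in the il1b result was not tested.

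Of the 16 genes, 2 rested on a single library. ENSDARG00000100174 had 0, 0 and 76 counts in HRasG12V, against 0, 0 and 0 counts in HRas control, and si:dkeyp-3b12.9 had 0, 794 and 0.234 CPM in HRasG12V, against 0.465, 0.641 and 0.156 CPM in HRas control. Every other keratinocyte library was at or near 0 for these genes. The direction of si:dkeyp-3b12.9 turned when HRasG12V 2 was left out (-1.85). In DESeq2's Wald test ENSDARG00000100174 was not called (adjusted p = 0.885).

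How far the other 14 calls depended on single libraries differed between genes. The calls of txnb, tuba8l3 and rasip1 held when any 1 library was left out and were lost without batch 1 (adjusted p = 0.175, 0.058 and 0.163). CAVIN1, AK1 and tpm4a each lost the call on leaving out HRas control 2 (adjusted p = 0.0503, 0.0829 and 0.162). MSN lost it without HRasG12V 1 or HRas control 1 or 2 (adjusted p up to 0.241), and PALLD without HRasG12V 2 or HRas control 1 or 2 (adjusted p up to 0.194). BCL6B depended on HRasG12V 2 and 3 and on HRas control 1 and 2 (adjusted p up to 0.342), and ENSDARG00000101809 on HRasG12V 3 and HRas control 1 and 2 (adjusted p up to 0.236). The calls of wipf1b (adjusted p up to 0.307), fabp4a (up to 0.358) and ANXA2 (up to 0.584) were lost without 4, 5 and 4 of the 6 libraries in turn. Only CAVIN1 kept its call without each batch in turn. Without batch 1, ANXA2, AK1, MSN, PALLD, BCL6B, ENSDARG00000101809, wipf1b, fabp4a and il1b also lost it (adjusted p at least 0.0843). Without batch 2, AK1, tpm4a, MSN, PALLD, BCL6B, ENSDARG00000101809, wipf1b, fabp4a and il1b did (0.0597 to 0.713). Without batch 3, tpm4a, BCL6B, wipf1b, fabp4a, il1b and ANXA2 did (0.063 to 0.133). Without macrophage HRas control 3 the calls of ANXA2 (adjusted p = 0.0641), BCL6B (0.0742) and il1b (0.1248) were lost too, and that of BCL6B also in the fit of the 6 keratinocyte libraries (0.0524). In DESeq2's Wald test the calls of ANXA2 (adjusted p = 0.072) and wipf1b (0.156) were lost. With DESeq2's size factors in edgeR that of ANXA2 was lost (0.0552), and without the batch term those of ANXA2 (0.12) and fabp4a (0.0977). With library size only, the calls of CAVIN1 (0.0608), wipf1b (0.0682), tpm4a (0.113) and AK1 (0.21) were lost. Those of MSN, PALLD, BCL6B, ENSDARG00000101809, fabp4a and ANXA2 were lost in that fit too (0.205 to 0.428). The direction of these 14 stayed the same in each of these fits.

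**Figure D1:**
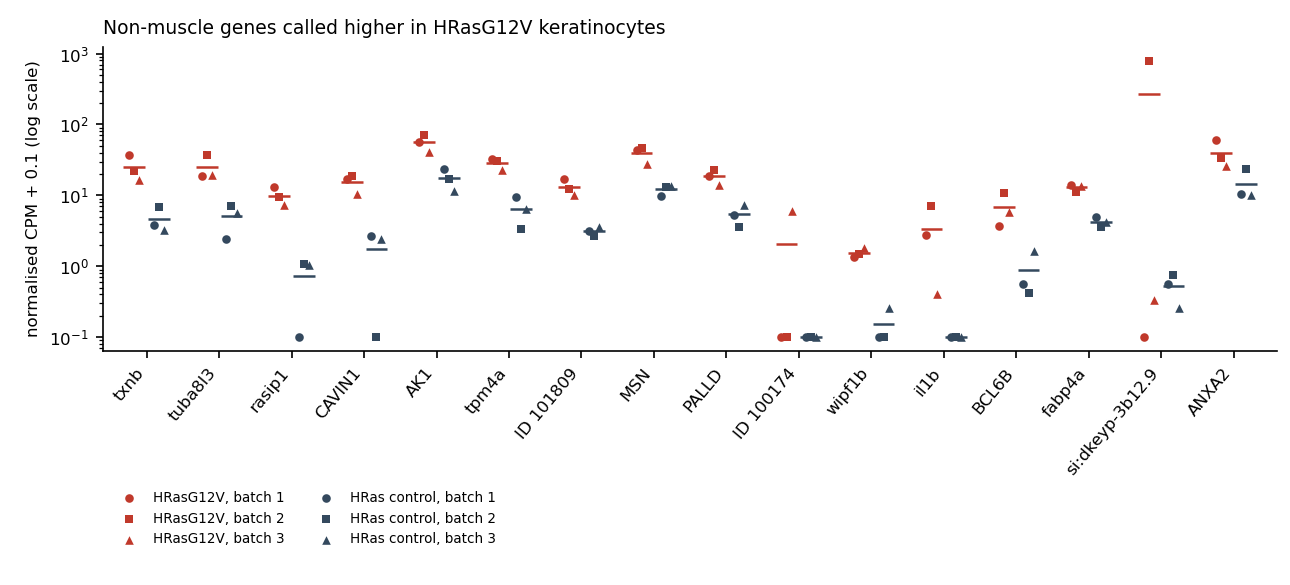
Normalised CPM plus 0.1 (log axis) of the 16 non-muscle genes called higher, in order of p, with HRasG12V libraries (red) to the left of HRas control libraries (dark), batches by symbol and the group mean as a bar. Genes labelled ID carry the last 6 digits of their Ensembl number, and only si:dkeyp-3b12.9 and ENSDARG00000100174 owe their HRasG12V mean to 1 library (794 CPM in batch 2 for the first).

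Below the threshold, the 15 genes on no muscle list with the next smallest p had adjusted p-values between 0.0574 and 0.189. In 14 of them each HRasG12V library lay above each HRas control library, an order seen in 6.75% of all genes tested. The 15 were chosen by p, which favours this order, so it is a description. The keratin krt94 had 10.9, 6.54 and 3.97 CPM in HRasG12V, against 1.16, 0.641 and 1.72 CPM in HRas control (log2 fold change 2.38 ± 0.63 SE, adjusted p = 0.101). The keratin krt18a.1, of the kind found in simple epithelia, had 14.9, 12.04 and 12.8 CPM in HRasG12V, against 4.88, 4.49 and 4.83 CPM in HRas control (log2 fold change 1.47 ± 0.41 SE, adjusted p = 0.136). The control libraries of krt18a.1 lay close to each other, and all HRasG12V libraries lay well above them. TEAD3, a transcription factor that works with YAP (1.98 ± 0.54 SE), RAP2B, a small GTPase of the Ras family (1.41 ± 0.40 SE), SAT1, which acetylates polyamines (2.29 ± 0.65 SE), apoeb, an apolipoprotein (adjusted p = 0.126), and SUB1, a transcriptional coactivator (2.38 ± 0.70 SE), were also among the 15, as were zgc:92606, MRPS35 and actc1c. The last is on no muscle list, but its name is that of a cardiac muscle actin.

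Feedback inhibitors and early targets of the Ras-MAPK pathway gave no call in edgeR. Of 53 genes of this list that were tested, 10 were higher and 0 lower at an unadjusted p under 0.05 (18.9% higher, against 4.53% of all genes), and 0 were called by edgeR and 1 by DESeq2. The ERK feedback inhibitor SPRY4 had 7.92, 15.8 and 5.22 CPM in HRasG12V, against 0.465, 2.24 and 3.74 CPM in HRas control (log2 fold change 2.05 ± 0.55 SE, adjusted p = 0.118). Its batch 2 library was highest, and HRas control 3 came nearest to the HRasG12V libraries. PHLDA2, an imprinted growth-restraining gene in mammals, had 16, 15.1 and 6.47 CPM in HRasG12V, against 4.65, 3.85 and 1.56 CPM in HRas control (log2 fold change 1.91 ± 0.48 SE, adjusted p = 0.0574). The immediate early transcription factor EGR3 had 2.38, 1.03 and 2.103 CPM in HRasG12V, against 0.697, 0 and 0 CPM in HRas control, close to the limit of detection in the controls. Of the AP-1 subunits, FOSL2 differed by 1.13 ± 0.41 SE, FOSL1 by 1.78 ± 0.87 SE, and the 2 genes named JUNB by 1.44 ± 0.54 and 1.22 ± 0.52 SE. The growth factor hbegfa, a ligand of the epidermal growth factor receptor, differed by 1.99 ± 0.76 SE, and SPRY1 by 1.93 ± 0.89 SE. The list's median was 0.33 for keratinocytes, 0.18 in neutrophils and 0.17 in macrophages. The count of 10 was 6 without HRasG12V 1 and 6 without HRas control 2.

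Genes that were lower in HRasG12V keratinocytes gave a single call. The gene si:dkey-222e15.4, of unknown role, had 0.317, 0 and 1.71 CPM in HRasG12V, against 4.42, 8.66 and 3.59 CPM in HRas control (log2 fold change -2.95 ± 0.66 SE, adjusted p = 0.0153). The raw values behind these levels were 2, 0 and 22 counts in HRasG12V, against 19, 27 and 23 counts in HRas control. HRasG12V 3 was the highest of its group and remained below every control. The call was lost without HRasG12V 1 or 2 or HRas control 1 or 2 (adjusted p between 0.08 and 0.259), in the fit without the batch term (adjusted p = 0.119), in the fit of the 6 keratinocyte libraries alone (0.236), with library size only (0.702) and without batch 1 (0.19006) or batch 2 (0.381). Among genes at a mean of at least 1 CPM, the 20 lower genes with the smallest p, this one included, had adjusted p-values up to 0.265, and 16 of the 20 had all HRasG12V libraries below all controls (5.16% of all genes tested), which their choice by p favours. Of the 20, 4 have no symbol. Without HRasG12V 3, 12 genes were called lower, and without HRas control 3, 6 were.

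The lower gene with the clearest tie to skin was col7a1. It encodes the collagen of the anchoring fibrils that fasten the epidermis to the dermis, and it had 22.0, 26.5 and 41.6 CPM in HRasG12V, against 74.6, 67.0 and 60.04 CPM in HRas control (log2 fold change -1.13 ± 0.34 SE, adjusted p = 0.226). Its HRasG12V libraries lay apart from the controls, with HRasG12V 3 nearest to them, and the adjusted test was not passed. A pair of genes named COL12A1, a collagen that associates with fibrils, pointed the same way at an unadjusted p under 0.05: ENSDARG00000019601 differed by -0.88 ± 0.33 SE and ENSDARG00000078322 by -0.73 ± 0.33 SE. This pair is on the list of notochord, cartilage and fibroblast genes, which had a median of -0.32. Of its 41 genes, 1 was higher and 2 were lower at this p, and these 2 are the COL12A1 pair. The shares were 2.44% higher and 4.88% lower, against 4.53% and 2.83% of all genes. The list summed to 768, 737 and 991 CPM in HRasG12V, against 1148, 1064 and 932 CPM in HRas control. These sums overlapped, and their part in the collagen values was not tested. In neutrophils col7a1 differed by -0.49 ± 0.34 SE and in macrophages by -0.39 ± 0.36 SE.

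Other genes of the 20 have roles in signalling and adhesion. PTPRF, a receptor tyrosine phosphatase at cell contacts, had 3.49, 1.72 and 4.36 CPM in HRasG12V, against 10.7, 11.5 and 6.71 CPM in HRas control (log2 fold change -1.57 ± 0.46 SE, adjusted p = 0.198). The clustered protocadherin pcdh1a3 had 0, 0 and 15 counts in HRasG12V, against 32, 29 and 8 counts in HRas control, so that HRasG12V 3 and HRas control 3 came close while the other batches were apart. ST3GAL5, which makes the ganglioside GM3, differed by -2.97 ± 0.88 SE, and CHST7, a carbohydrate sulfotransferase, by -2.18 ± 0.67 SE. None of these reached an adjusted p of 0.05. CMTM4, a membrane protein of the MARVEL family, had 0, 0 and 2 counts in HRasG12V, against 12, 12 and 3 counts in HRas control. TMEFF2 (-1.73 ± 0.53 SE) and DISP3 (-2.76 ± 0.84 SE), both membrane proteins, and CACNB4, a calcium channel subunit (-2.78 ± 0.82 SE), completed this group.

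Chromatin and contractile genes were also among the 20. The Polycomb-associated gene rybpa had 2.06, 0.688 and 2.34 CPM in HRasG12V, against 7.21, 9.30 and 3.12 CPM in HRas control (log2 fold change -1.74 ± 0.47 SE, adjusted p = 0.118). The chromatin-binding gene l3mbtl1b had 3.17, 6.54 and 11.8 CPM in HRasG12V, against 14.2, 19.2 and 15.1 CPM in HRas control (log2 fold change -1.19 ± 0.37 SE, adjusted p = 0.257). For both, the groups were apart, with HRasG12V 3 the highest of its group. The myosin heavy chain gene myh7ba had 0.9505, 0.688 and 1.87 CPM in HRasG12V, against 10.23, 3.53 and 6.24 CPM in HRas control (log2 fold change -2.34 ± 0.61 SE, adjusted p = 0.0868), and thus ran opposite to the muscle list. Of the 20 genes, 13 were below 0 in neutrophils as well, 2 of them at an unadjusted p under 0.05, and 15 were below 0 in macrophages, 0 of them at that p. Over all genes, 51.7% were above 0 in neutrophils and 57.7% in macrophages. The shares of all genes at that p and lower were 3.22% in neutrophils and 0.776% in macrophages.

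**Figure D2:**
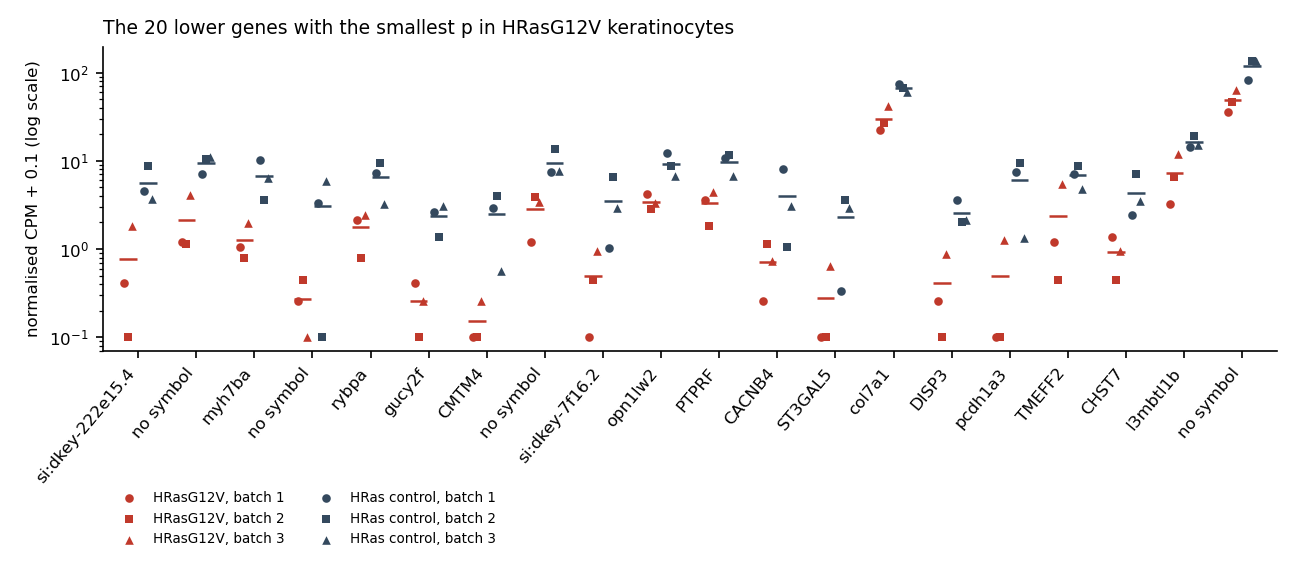
Normalised CPM plus 0.1 (log axis) of the 20 lower genes with the smallest p, with HRasG12V libraries (red) to the left of HRas control libraries (dark), batches by symbol and the group mean as a bar. The most abundant gene with a symbol, col7a1, lies at 22.0 to 41.6 CPM in HRasG12V and at 60.04 to 74.6 CPM in HRas control, and only the leftmost gene, si:dkey-222e15.4, passed the adjusted test.

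Photoreceptor genes were among those with lower values. Of 47 tested, 5 were lower and 0 higher at an unadjusted p under 0.05 (10.6% lower, against 2.83% of all genes), 0 were called by edgeR or DESeq2, and the median was -0.45. The guanylate cyclase gucy2f, which restores cyclic GMP after light, had 2, 0 and 2 counts in HRasG12V, against 11, 4 and 19 counts in HRas control (log2 fold change -3.58 ± 0.97 SE, adjusted p = 0.118). The red-cone opsin opn1lw2 had 4.12, 2.75 and 3.19 CPM in HRasG12V, against 12.3, 8.66 and 6.55 CPM in HRas control (log2 fold change -1.37 ± 0.40 SE, adjusted p = 0.182). For both, every HRasG12V library lay below every control, and both are known from the eye and not from skin. The source of their reads was not tested. The list's median was -1.51 in neutrophils and 0.31 in macrophages. Scaling by library size alone moved the keratinocyte median to 0.01, where the median of all genes was 0.40. The count of 5 was 13 without HRasG12V 3 and 2 without HRas control 1. Over all genes, 415 were lower at this p in the main fit, and 285 to 890 with 1 keratinocyte library left out. Counts of lower list members in such fits, here and below, are to be read beside that range. Neurons gave 1 higher and 2 lower of 48 (2.08% and 4.17%, against 4.53% and 2.83% of all genes). The synaptic vesicle protein SV2A had 30.1, 29.2 and 33.7 CPM in HRasG12V, against 57.0, 41.99 and 54.0 CPM in HRas control, where the groups did not overlap.

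Genes that define keratinocytes had a median near that of all genes. The median was 0.02 over 38 keratinocyte genes tested. Of these, 5 were higher and 0 lower at an unadjusted p under 0.05 (13.2% higher, against 4.53% of all genes). ANXA2 was the only one called by edgeR, and DESeq2 called 0. Summed over the list, the level was 5702, 5459 and 5614 CPM in HRasG12V, against 4711, 8250 and 5928 CPM in HRas control, where HRas control 2 stood highest. Beside krt94 and krt18a.1, krt8, the usual partner of keratin 18, had 76.4, 84.3 and 60.5 CPM in HRasG12V, against 36.3, 49.7 and 42.4 CPM in HRas control (log2 fold change 0.79 ± 0.31 SE, adjusted p = 0.513) and did not overlap. The abundant skin keratin krt4 had 2820, 2683 and 2761 CPM in HRasG12V, against 2267, 3956 and 2882 CPM in HRas control, where HRas control 2 stood highest and HRas control 1 lowest of all, so that the order of the group means rested on HRas control 2. Another abundant skin keratin, krt5, averaged 726 CPM in HRasG12V and 906 CPM in HRas control. The lowest of the controls lay within the range of the HRasG12V libraries for krt5. Of the list, 3 were higher without HRas control 1, while 2 were lower without HRasG12V 3 and 1 without macrophage HRas control 3.

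Genes of inflammation and wound repair were mixed. Of 35 TNF and NF-kB response genes tested, 4 were higher and 1 lower at an unadjusted p under 0.05, and il1b was called. The shares were 11.4% higher and 2.86% lower, against 4.53% and 2.83% of all genes. The list's median was 0.46 in keratinocytes, 0.67 in neutrophils and 0.52 in macrophages. CEBPB, a transcription factor of the acute phase, had 17.6, 32.0 and 7.24 CPM in HRasG12V, against 7.21, 8.66 and 6.86 CPM in HRas control (log2 fold change 1.21 ± 0.38 SE, adjusted p = 0.27), with batch 2 highest and HRasG12V 3 within the range of the controls. The NF-kB subunit gene nfkb2 had 6.97, 12.7 and 9.50 CPM in HRasG12V, against 4.18, 7.05 and 2.81 CPM in HRas control (log2 fold change 1.09 ± 0.42 SE, adjusted p = 0.489). The exception was KLF4, an epithelial transcription factor, at -2.01 ± 0.95 SE. Of 36 IL6-Jak-Stat3 genes, 4 were higher and 0 lower, among them the kinase JAK1 (0.64 ± 0.31 SE), and of 14 interferon response genes none was at this p in either direction. The IL6-Jak-Stat3 median was 0.15 in keratinocytes, 0.23 in neutrophils and 0.19 in macrophages. Of the TNF and NF-kB genes, 2 were higher without HRasG12V 2, 7 were higher without macrophage HRas control 3 and 0 were lower without HRas control 2. Of the IL6-Jak-Stat3 genes, 2 were higher without HRasG12V 1 or HRas control 2, and 1 without HRasG12V 2 or HRas control 3, while 2 were lower without HRasG12V 3 and 1 without HRasG12V 2 or neutrophil HRas control 3.

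Of 64 genes of injury and invasion, 7 were higher and 2 lower at an unadjusted p under 0.05. The shares were 10.9% higher and 3.1% lower, against 4.53% and 2.83% of all genes. The list's median was 0.33 in keratinocytes, 0.42 in neutrophils and 0.43 in macrophages. ANXA2, described above, is on this list and was its 1 call in edgeR, and DESeq2 called 0. The matrix protease MMP9 had 6.495, 3.44 and 3.04 CPM in HRasG12V, against 1.16, 0.641 and 1.09 CPM in HRas control (log2 fold change 2.27 ± 0.76 SE, adjusted p = 0.34), and fibronectin, FN1, had 90.9, 46.5 and 60.5 CPM in HRasG12V, against 41.1, 33.7 and 24.8 CPM in HRas control (log2 fold change 0.96 ± 0.35 SE, adjusted p = 0.433). Both were free of overlap, and neither passed the adjusted test. MMP9 is also a product of neutrophils, in which its difference was 3.01 ± 0.74 SE. The matrix glycoprotein TNC, at -0.89 ± 0.43 SE, did not pass it either. Without HRasG12V 1 the counts were 4 higher and 0 lower, without HRasG12V 3 there were 4 lower, and without HRas control 2 there was 1 lower.

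Lists of growth and metabolism gave no calls. Ribosomal protein genes had a median of 0.48 over 93 genes, with 89 above 0, beside 50.5% above 0 among all genes. At an unadjusted p under 0.05, 15 were higher and 0 lower (16.1% higher, against 4.53% of all genes), but 0 were called by edgeR or DESeq2. Their sum was 5344, 4055 and 3594 CPM in HRasG12V, against 2712, 3364 and 3182 CPM in HRas control. HRasG12V 1 stood far above the others, and HRasG12V 3 was only slightly above HRas control 2. The count of 15 depended on single libraries: it was 4, 34 and 9 without HRasG12V 1, 2 and 3, and 5, 6 and 30 without HRas control 1, 2 and 3. It was 27 without the shallow macrophage library. Over all genes the count higher at this p was 665, and 503 to 912 with 1 keratinocyte library left out. In macrophages the list's median was 0.47 (0.32 without the shallow library) and in neutrophils 0.17.

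Of 32 glycolysis genes, 7 were higher and 0 lower at an unadjusted p under 0.05 (21.9% higher, against 4.53% of all genes). None were called by edgeR or DESeq2. The 2 genes named PKM, for pyruvate kinase, differed by 1.21 ± 0.37 and 1.67 ± 0.60 SE, LDHA, which makes lactate, by 1.29 ± 0.49 SE and HK1, the first enzyme of the pathway, by 0.67 ± 0.33 SE. The list's median was 0.28 in keratinocytes, -0.35 in neutrophils and 0.36 in macrophages (0.32 without the shallow library). Glycolytic enzymes are abundant in muscle, and the part of the muscle transcripts in these values was not tested. The count was 3 without HRasG12V 1 and 4 without HRas control 2.

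Cell cycle genes gave 2 higher and 2 lower of 79 at an unadjusted p under 0.05, and the 13 genes of the mitochondrial genome 0 in either direction. For cell cycle genes the share was 2.53% in each direction, against 4.53% higher and 2.83% lower of all genes.

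**Figure D3:**
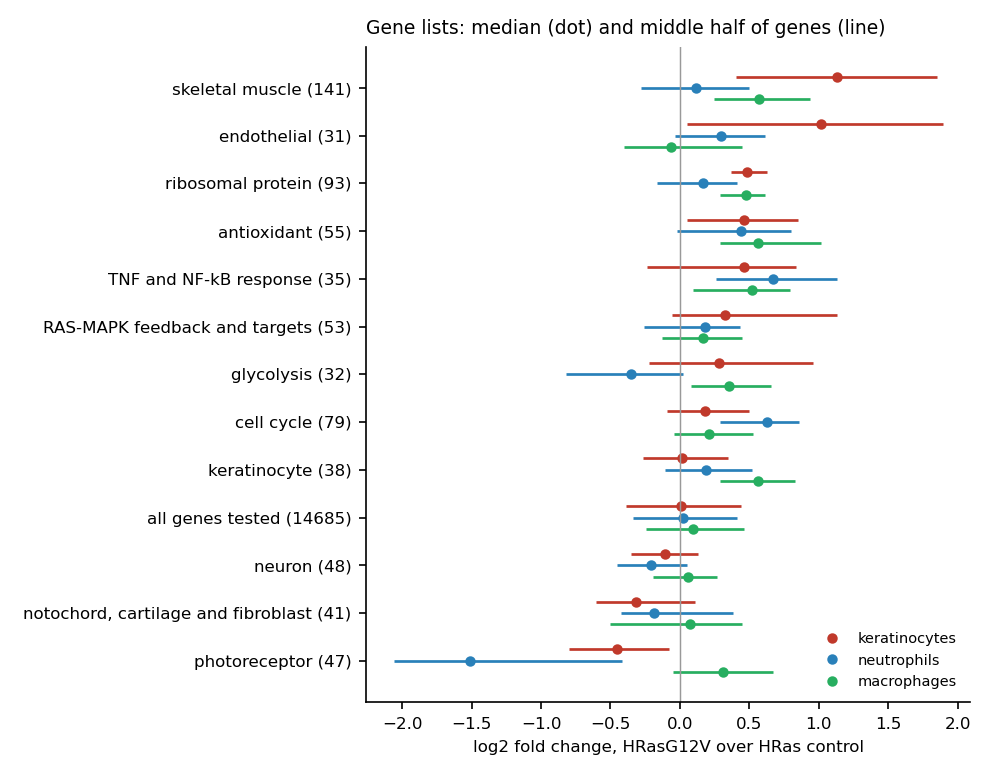
Log2 fold change (HRasG12V over HRas control) of gene lists in keratinocytes (red), neutrophils (blue) and macrophages (green), with the median as a dot and the middle 50% of genes as a line, and the number of genes tested in brackets. Skeletal muscle and endothelial genes have the highest keratinocyte medians (1.14 and 1.02), and photoreceptor genes are lowest in neutrophils (-1.51).

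Skeletal muscle genes were the most numerous of the called genes. Of 141 tested, 31 rose and 0 fell, and 74 were higher and 1 lower at an unadjusted p under 0.05 (52.5% higher, against 4.53% of all genes). The list's median was 1.14 in keratinocytes, 0.12 in neutrophils and 0.57 in macrophages (0.52 without the shallow library). At this p, 28 were higher and 1 lower in macrophages, beside 2.54% and 0.776% of all genes. In neutrophils 10 were higher and 6 lower, beside 3.56% and 3.22% of all genes. DES, the intermediate filament desmin of muscle, had 38.7, 44.4 and 21.2 CPM in HRasG12V, against 2.32, 4.17 and 2.65 CPM in HRas control (log2 fold change 3.48 ± 0.44 SE, adjusted p = 1.22e-06). The troponin TNNC1 had 20.8, 23.4 and 19.7 CPM in HRasG12V, against 1.63, 2.89 and 1.72 CPM in HRas control (log2 fold change 3.42 ± 0.45 SE, adjusted p = 2.11e-06), and the creatine kinase ckmb had 122, 109 and 89.4 CPM in HRasG12V, against 29.3, 22.1 and 15.8 CPM in HRas control (log2 fold change 2.31 ± 0.34 SE, adjusted p = 1.88e-05). In these the lowest HRasG12V library lay well above the highest control library. The myosin light chains myl10 (4.24 ± 0.59 SE) and myl13 (3.205 ± 0.43 SE) and the genes named MYL1 (2.56 ± 0.38 and 2.25 ± 0.34 SE) and TNNI2 (2.398 ± 0.36 and 3.09 ± 0.48 SE) were called as well. The sum of the list had a ratio of 1.81 in CPM, with 1.52, 2.08 and 1.87 in batches 1, 2 and 3, and of 3.99 in TPM, with 3.18, 2.69 and 5.86. More muscle RNA in the pull-down, tagged muscle cells and muscle transcripts in keratinocytes cannot be told apart. With all muscle-list genes removed before normalization, 9 non-muscle genes remained called higher and 1 lower, against 16 and 1. The 7 others had adjusted p-values between 0.0523 and 0.103 in that fit and nearly the same log2 fold changes as before: 1.5004 against 1.49 for ANXA2, 1.66 against 1.65 for fabp4a, 2.93 against 2.92 for BCL6B, 4.15 against 4.14 for wipf1b and 7.37 against 7.37 for il1b. The remaining 2 were ENSDARG00000100174 (7.35) and si:dkeyp-3b12.9 (7.66). The adjustment in that fit ranked p-values without the 31 called muscle genes, so its adjusted p-values do not share a base with the main ones. Whether the 7 calls depended on muscle RNA was not tested.

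**Figure D4:**
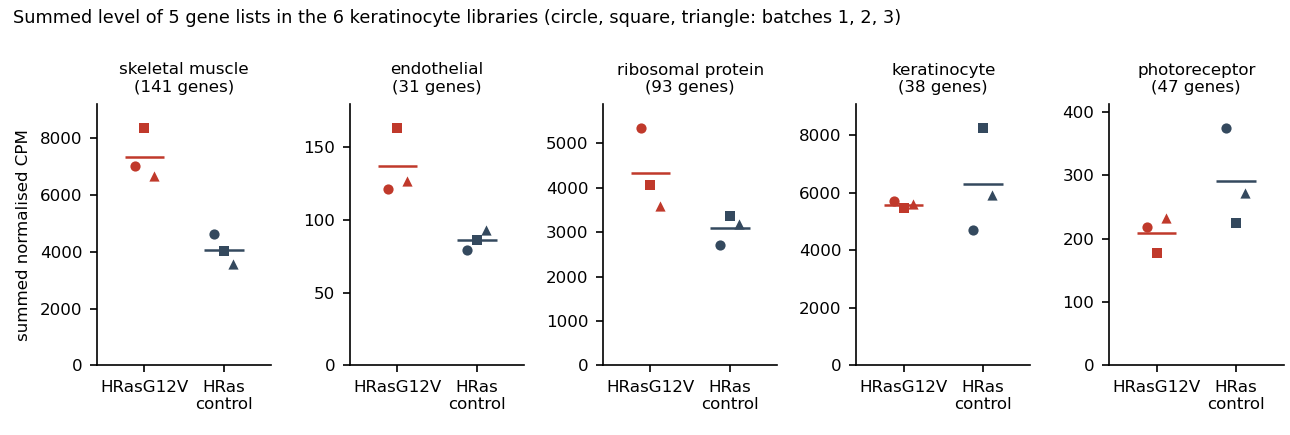
Summed normalised CPM of 5 gene lists in each keratinocyte library, HRasG12V (red) to the left of HRas control (dark), batches 1, 2 and 3 as circle, square and triangle, and bars for group means, with each axis starting at 0. Muscle and endothelial sums do not overlap between the groups (6666 to 8353 CPM in HRasG12V against 3558 to 4629 CPM in HRas control for muscle, and 121 to 163 CPM in HRasG12V against 79.0 to 93.1 CPM in HRas control for endothelium), whereas keratinocyte and photoreceptor sums do.

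Most of the keratinocyte calls were not calls in the other cell types. Of the 16 non-muscle genes, 12 were above 0 in neutrophils and 12 in macrophages, beside 51.7% and 57.7% of all genes. In neutrophils, where 42 genes (0.286%) were called, txnb was called higher and si:dkeyp-3b12.9 lower, and in macrophages edgeR called 0 genes and DESeq2 2. The macrophage test gave 373 genes higher (2.54%) and 114 lower at an unadjusted p under 0.05, and the neutrophil test gave 3.56% higher. The median of the 16 was 2.38 in keratinocytes, 0.53 in neutrophils and 0.43 in macrophages (0.38 without the shallow library), and the genes were chosen for their keratinocyte value. For the 31 called muscle genes the medians were 2.25, 0.52 and 0.89. Of these 31, 30 were above 0 in macrophages and 26 in neutrophils. At an unadjusted p under 0.05, 17 were higher and 0 lower in macrophages (15 and 0 without the shallow library). In neutrophils 8 were higher and 1 lower at this p.

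Values in the other cell types are given for a few of these genes. ANXA2 differed by 1.49 ± 0.37 SE in keratinocytes, 1.29 ± 0.41 SE in neutrophils and 1.098 ± 0.47 SE in macrophages, and il1b was above 0 in each. CAVIN1 differed by -0.35 ± 0.54 SE in neutrophils and 1.23 ± 0.63 SE in macrophages, tuba8l3 by 0.00 ± 0.36 and 0.53 ± 0.43 SE, and fabp4a by -0.01 ± 0.35 and 0.68 ± 0.37 SE. The difference between cell types was tested directly for every gene. The keratinocyte effect differed from the neutrophil effect in 10 genes (0.0681%) and from the macrophage effect in 2 (0.0136%). Of the non-muscle genes called in keratinocytes, these were tpm4a and si:dkeyp-3b12.9 against neutrophils and rasip1 against macrophages, and for tpm4a the difference was lost without keratinocyte HRas control 2 (adjusted p = 0.142), neutrophil HRasG12V 2 (0.0682), neutrophil HRas control 2 (0.269) or macrophage HRas control 3 (0.0579), without batch 2 (log2 difference 1.44, adjusted p = 0.914) or batch 3 (0.173), and with library size only. For the other genes a difference between cell types was not shown.

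**Figure D5:**
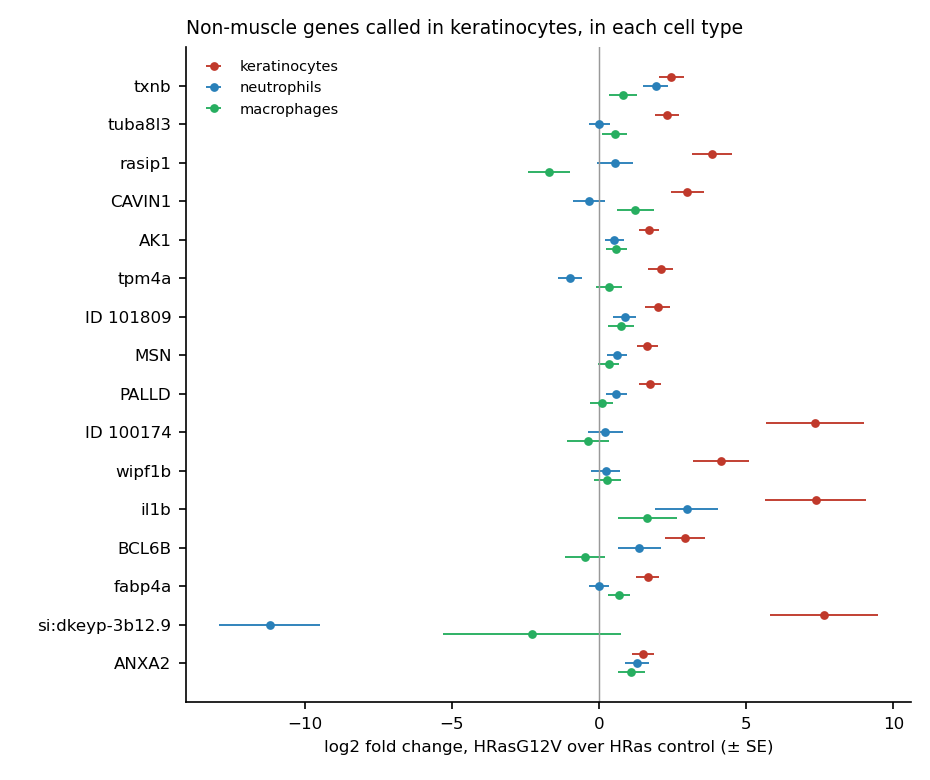
Log2 fold change with its SE of the 16 non-muscle genes called in keratinocytes, in keratinocytes (red), neutrophils (blue) and macrophages (green). The txnb gene lies above 0 in each cell type (2.45, 1.92 and 0.83), rasip1 lies above 0 in keratinocytes and below 0 in macrophages (3.84 and -1.70), and the values of il1b, ENSDARG00000100174 and si:dkeyp-3b12.9 depend on libraries at or near 0.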

How the data were processed

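TRAP RNA was amplified from small amounts (20 cycles, per the labels), so intervals cover counting error only. Reads were mapped to GRCz10 by the authors (Bowtie 1.1.1), and RSEM 1.2.20 wrote the deposited expected counts and TPM for each Ensembl gene. FPKM values were not used. Of 31953 genes, 5832 have no symbol and 4140 share one. The 2 genes named MYL11 were matched to the muscle list after their values were seen, and the ribosomal list, taken by name pattern, includes RPL22L1, RPL36AL and rps19bp1. Names in capitals can stand for several zebrafish paralogs, among which RSEM divides reads.

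Expected counts were rounded. In edgeR 4.0.16 (R 4.3.3), filterByExpr kept 14685 genes, TMM factors were computed and a quasi-likelihood model with 6 groups and 3 batches was fitted to all 18 libraries, with a prior count of 0.125. Contrasts were HRasG12V over HRas control in each cell type and their differences. P-values were adjusted by Benjamini-Hochberg across the whole table, and 0.05 was the threshold. The replicate number is the labelled batch, a collection day, and so pairs the libraries. Deviations of same-batch keratinocyte libraries correlated at 0.0291 to 0.198 across genes, against -0.196 to 0.0428 between batches, so the ranges overlapped. In neutrophils the same-batch values were 0.0439, 0.0964 and 0.335, and between batches they reached 0.173. Deviations were taken from the mean of each group of 3, so same-batch and between-batch values are not independent.

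The genes and lists were chosen with earlier results of these data known. Named genes were all those called (8 muscle genes in full), the 20 lower and the 15 next higher genes with the smallest p at a mean of at least 1 CPM, list members past an unadjusted p of 0.05, and the cytokines that the study followed by qPCR. Exact permutation tests used log2(CPM + 0.5). Alternatives were DESeq2's size factors, library size only, other filters, DESeq2 1.42.0, no batch term, the keratinocyte libraries alone, a prior count of 2, unrounded counts, the 10 most abundant features left out, and libraries or batches left out. Removing the muscle list and leaving out each neutrophil library were added after seeing the data. No gene sequences were used here, and 1 gene list is not reported here.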

Additional observations from a re-analysis of the deposited data

Results flagged for a closer look

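Differences between cell types in the effect of HRasG12V were called for 12 gene and cell type pairs by the test of the difference itself in edgeR. Against neutrophils, si:dkeyp-3b12.9 differed by 18.84 on the log2 scale, with 0, 794 and 0.234 CPM in HRasG12V keratinocytes, 0.465, 0.641 and 0.156 CPM in HRas control keratinocytes, 0.384, 0.168 and 0.275 CPM in HRasG12V neutrophils and 58.6, 0.572 and 336 CPM in HRas control neutrophils. The heat shock gene hsc70 differed by 5.90, ACTA1 (ENSDARG00000036371) by 4.72, EEF1A1 (ENSDARG00000069951) by 7.07, hspa1b by 6.97, tpm4a by 3.08 and actc1c by 3.89. In these 6 genes neutrophil HRas control 2 stood alone, at 62.6 CPM for hsc70, 44.8 for ACTA1, 384 for EEF1A1, 27.8 for hspa1b, 51.3 for tpm4a and 60.6 for actc1c, and without it none of the 6 was called. The 5_8S_rRNA gene ENSDARG00000104115 differed by -6.62, with HRasG12V neutrophil 1 at 60.8 CPM.

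The muscle genes myl10 (4.23) and TNNC1 (2.88) differed from neutrophils without such a library. The TNNC1 call was lost without keratinocyte HRasG12V 3 (adjusted p = 0.13022), HRas control 1 (0.0783) or HRas control 2 (0.0823), neutrophil HRasG12V 2 (0.118) or macrophage HRas control 3 (0.0579), without the batch term (0.066), without any 1 batch (0.102 to 0.232) and with library size only (0.93), and that of myl10 without batch 3 (0.328) and with library size only (0.249). In HRasG12V neutrophils myl10 had 11.3, 4.38 and 2.2 CPM, against 7.63, 2.86 and 6.74 CPM in HRas control neutrophils, so these groups overlapped while those of keratinocytes did not.

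Against macrophages, rasip1 differed by 5.54 and DES (ENSDARG00000058656) by 3.48. In macrophages rasip1 had 0.609, 0.428 and 0.639 CPM in HRasG12V, against 1.82, 2.09 and 0 CPM in HRas control, where the last value is that of the shallow library. DES had 3.45, 4.18 and 4.57 CPM in HRasG12V macrophages, against 2.98, 6.18 and 0 CPM in HRas control macrophages. Both calls were lost without keratinocyte HRas control 1 (adjusted p = 0.0703 for each) and with library size only. They were also lost without batch 1 (adjusted p = 0.304 for rasip1 and 0.153 for DES). That of DES was lost without batch 2 too (log2 difference 2.76, adjusted p = 0.681).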

How the results depend on the processing

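Main counts were 47 genes higher, 1 lower, 16 higher non-muscle genes, and 10 and 2 differences from neutrophils and macrophages. With library size only these were 18, 0, 6, 5 and 0. All genes then shifted by 0.40 at the median, and the split at an unadjusted p under 0.05 was 636 higher and 41 lower, against 665 and 415. With every gene of at least 1 count there were 6 lower, 37 differences from neutrophils and 8 from macrophages. A mean of at least 50 counts gave 0 lower, 9 non-muscle, 6 and 1 differences. DESeq2's Wald test gave 2 lower and 4 differences from neutrophils, and the fit of the 6 keratinocyte libraries 3 lower, si:dkey-222e15.4 not among them. With the muscle list removed there were 9 higher, 9 non-muscle and 1 difference from macrophages. Without the shallow macrophage library there were 2 differences from neutrophils.

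The batch pairs the libraries by collection day. Without this replicate block 35 genes were called higher, 0 lower and 13 non-muscle, and the differences numbered 8 and 2.

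Leaving out 1 library or 1 batch gave 21 to 56 higher, 1 to 12 lower, 4 to 20 non-muscle genes, 2 to 30 differences from neutrophils and 0 to 13 from macrophages. Higher calls were 21 and 29 without batches 1 and 2. Lower calls were 3, 4 and 10 without batches 1, 2 and 3, and 2 or 3 without HRas control 2 or 1 of the neutrophil libraries HRasG12V 2, HRas control 2 and HRas control 3. Differences from neutrophils were 19 without keratinocyte HRasG12V 2, 5 without HRas control 2, and 18, 6, 28 and 30 without the neutrophil libraries HRasG12V 1, HRasG12V 2, HRas control 1 and HRas control 3. Differences from macrophages were 4 and 5 without keratinocyte HRasG12V 1 and 2, 0 without HRas control 1 and 5 without neutrophil HRas control 2. The direction of si:dkeyp-3b12.9 turned without batch 2 (-0.998) and without HRasG12V 2 (leaving out single libraries gave -1.85 to 10.82), and that of HRAS ENSDARG00000098497 with library size only (0.0412). Of the 48 called genes, 9 were called in each of the 26 alternatives that tested them, all of them muscle genes (DES, TNNC1, ckmb, myl10, myl13 and the pairs named MYL1 and TNNI2), which the alternative without the muscle list leaves out. The cause of these shifts was not tested.

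Few reads outside the most abundant features and 3 libraries per group limit genes at a few CPM.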

Other observations

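Markers of other cell types and stress genes gave further values. Heat shock genes had 4 of 27 higher (14.8%) and 0 lower at an unadjusted p under 0.05, beside 4.53% higher and 2.83% lower of all genes. HSPB1, a small heat shock protein that is also on the muscle list, was called at 4.75, 5.51 and 6.15 CPM in HRasG12V, against 0.232, 0 and 0.936 CPM in HRas control (log2 fold change 3.65 ± 0.78 SE, adjusted p = 0.0089), and its co-chaperone partner BAG3 had 4.12, 4.47 and 1.32 CPM in HRasG12V, against 0.232, 0.321 and 0.312 CPM in HRas control without a call. Both were scarce in each control library. Cardiac muscle genes had 3 of 11 higher (27.3%), led by the myosin heavy chain gene MYH7 (1.598 ± 0.44 SE, adjusted p = 0.126).

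Among blood cells, 3 of 14 erythroid genes, 3 of 20 neutrophil genes, 4 of 28 macrophage genes and 3 of 29 pan-leukocyte genes were higher at this p, and 0, 1, 1 and 0 were lower. In this order the shares higher were 21.4%, 15%, 14.3% and 10.3%, against 4.53% of all genes. The shares lower were 0%, 5%, 3.57% and 0%, against 2.83% of all genes. The macrophage marker irf8 had 5, 1 and 0 counts in HRasG12V and 0 in each HRas control library. Ionocyte and mucous genes had 0 higher and 2 lower of 16, lens genes 2 and 1 of 27, liver and gut genes 2 and 0 of 29, and pigment and neural crest genes 1 and 0 of 18. For these lists the shares higher were 0%, 7.41%, 6.9% and 5.56%, and the shares lower 12.5%, 3.7%, 0% and 0%. The mucin gene muc5.1 had 9.50, 43.4 and 33.4 CPM in HRasG12V, against 58.3, 45.5 and 39.3 CPM in HRas control, where the groups overlapped.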
